A study of Drosophila melanogaster with 16 samples.

Results

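The genes described here encode the proteins of the mitochondrial ribosome. They were taken as every probe set of the array with a single gene symbol that begins mRpL (large subunit) or mRpS (small subunit) followed by a digit, with a signal of at least log2 4 in at least 3 of 16 arrays, and with the probe set of the highest mean standing for each gene. The rule gave 69 genes, 44 of the large and 25 of the small subunit, of the 8110 genes and unnamed probe sets that passed the same filter. No measured mRpL or mRpS gene was lost to the filter, since all 69 reached log2 4 in all 16 arrays. Of 73 such symbols in the RefSeq gene table, mRpS10 and mRpL53 shared their probe sets with another gene, and these, mRpL34 and mRpL37 were not analysed here.

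RNA came from whole heads of adult male Drosophila melanogaster of the Berlin genetic background, 2 to 4 days old, with no transgene or mutation named in the labels. Ethanol flies received vapor at a 60% dilution of saturated ethanol vapor for 30 min, air flies received humidified air for the same 30 min, and both were frozen at 7 times of recovery, at 0 min, at 4 times from 30 to 120 min spaced by 30 min, and at 180 and 210 min. For every ethanol and air array, material from 3 batches of 200 flies entered 1 RNA extraction, and 2 further arrays, A and B, held flies that were not exposed. Each exposure and time therefore had 1 array, the spread between pools of one time was not measured, and p-values for ethanol against air rest on the spread of the 7 ethanol minus air differences of matched time.

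Mitochondrial ribosomes translate the few messages of the mitochondrial genome, which in animals encode core subunits of the respiratory chain and the ATP synthase. Their RNA comes from mitochondrial DNA, whereas all of their proteins come from nuclear genes, are made in the cytosol and are imported. Many of the proteins descend from the bacterial ribosome and others are found only in mitochondria. Heads are rich in nerve, photoreceptor and muscle cells, which depend on respiration.

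Mitochondrial ribosomal protein mRNAs were present in every head sample and did not change detectably after ethanol. Averaged over the 7 matched times, limma called 0 of 69 genes at an adjusted p under 0.05, against 0.691% of all 8110 genes. An unadjusted p under 0.05 was found in 3 of 69 genes (4.35%), all lower after ethanol, and in 12.1% of all genes. The estimates ran from −0.22 (mRpL51) to 0.14 (mRpL36) on the log2 scale, and 59 of 69 lay within 0.1 of no difference. The median was −0.041, against −0.011 over all genes, and 14 genes had a positive and 55 a negative estimate (20.3% positive, against 45.1% of all genes). With each array scaled to its median, 29 estimates were positive and the median was −0.018, against 0.012 over all genes. With quantile scaling 18 were positive and the median was −0.034, against −0.0030 over all genes. With a covariate for RNA of body tissues (described below) 5 were positive and the median was −0.081, against −0.056. Leaving out 1 time moved the median between −0.076 (without 0 min) and −0.022 (without 180 min). The unadjusted 95% intervals lay within 0.25 log2 units of no difference for 56 of 69 genes and within 0.5 for all 69, between −0.47 and 0.32. In whole heads, fewer cells of a type and less RNA per cell cannot be told apart.

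**Figure D1:**
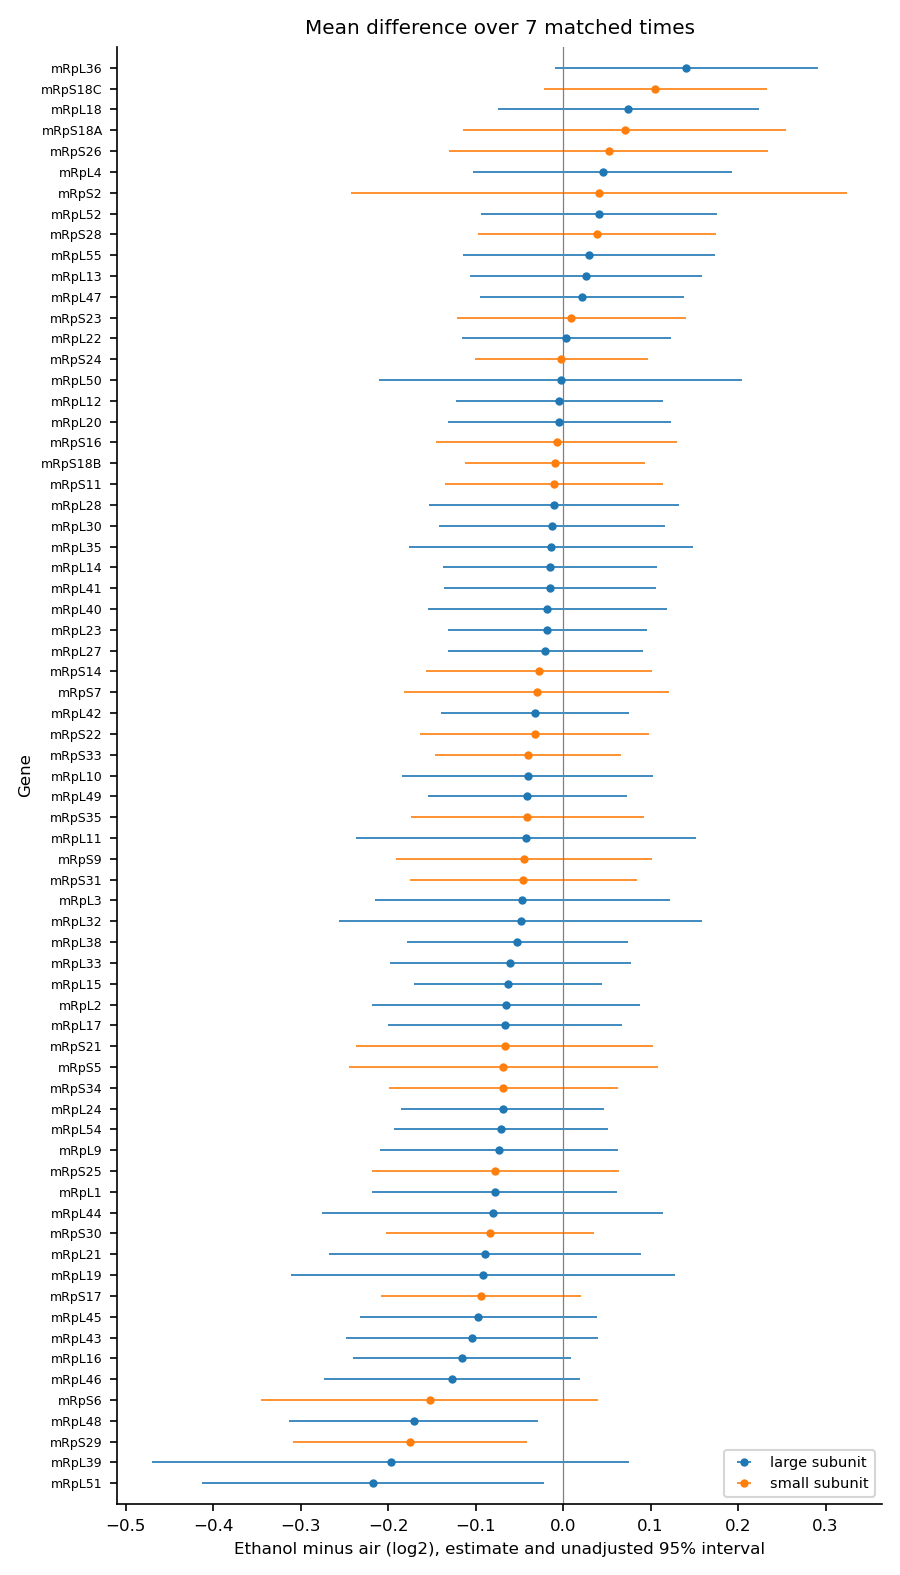
Mean ethanol minus air difference over 7 matched times on the log2 scale (horizontal axis) for each of the 69 genes (vertical axis, sorted by estimate), with large subunit genes in blue and small subunit genes in orange. Points are limma estimates and bars are unadjusted 95% intervals; 59 of 69 points lie within 0.1 of the line at no difference.

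The genes with the smallest unadjusted p-values among those lower after ethanol were mRpS29, mRpL48 and mRpL51. mRpS29 encodes the fly counterpart of the GTP-binding small subunit protein known in mammals as death-associated protein 3 (Release 6 assembly, chromosome arm 2R from 22418937 to 22420376). Its signal had a lowest, median and highest value of 7.95, 8.08 and 8.39 in the 7 air arrays and of 7.84, 7.94 and 8.07 in the 7 ethanol arrays, and was 8.0 and 7.90 in unexposed A and B. The ranges overlapped, yet at each time the ethanol array was the lower one, with differences of −0.16, −0.15, −0.05, −0.19, −0.03, −0.44 and −0.20 from 0 to 210 min. Its mean difference was −0.18 (SE 0.059, limma adjusted p 0.306, n = 7 pairs), and 1 of 69 genes had the same sign at 7 of 7 times, against 3.83% of all genes. No gene of the 69 had ethanol and air arrays that did not overlap, against 0.58% of all genes.

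mRpL48 and mRpL51 encode large subunit proteins (2L from 1710462 to 1711465 and 2L from 8516753 to 8517380). mRpL48 read 7.58, 7.79 and 7.96 (lowest, median, highest) in air and 7.31, 7.65 and 7.85 in ethanol, with 7.79 and 7.76 in unexposed flies. Its lowest ethanol arrays were those of 90 and 120 min, and its unexposed arrays sat at the air median or just below it. mRpL51 read 8.39, 8.59 and 8.84 in air, 8.06, 8.37 and 8.65 in ethanol and 8.41 and 8.34 in unexposed flies. For mRpL51 it was the air arrays that lay mostly above the unexposed ones, and ethanol arrays lay on both sides. The mean differences were −0.17 (SE 0.063, limma adjusted p 0.350) for mRpL48 and −0.22 (SE 0.086, limma adjusted p 0.380) for mRpL51, and neither passed the test. The next smallest p-values on the lower side belonged to mRpL16 (−0.12, SE 0.055) and mRpL46 (−0.13, SE 0.065).

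On the higher side, mRpL36, a small large-subunit protein with a bacterial homologue (3L from 8124584 to 8125132), read 7.62, 7.76 and 7.92 in air, 7.61, 7.87 and 8.11 in ethanol and 7.82 and 7.72 in unexposed flies. Its ethanol arrays of 0, 60 and 90 min lay above every air array, a split that was not counted over all genes. The other 4 read between 7.61 and 7.87. The mean difference was 0.14 (SE 0.066, limma adjusted p 0.434). mRpS18C, mRpL18, mRpS18A and mRpL4 followed by p-value, with differences of 0.11, 0.07, 0.07 and 0.05. Of these 5 genes, only mRpS18C was higher after ethanol at 6 or more of the 7 times, and 12 of 69 genes were lower at 6 or more. Over all genes, 9.98% were higher and 12.3% lower at 6 or more times.

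**Figure D2:**
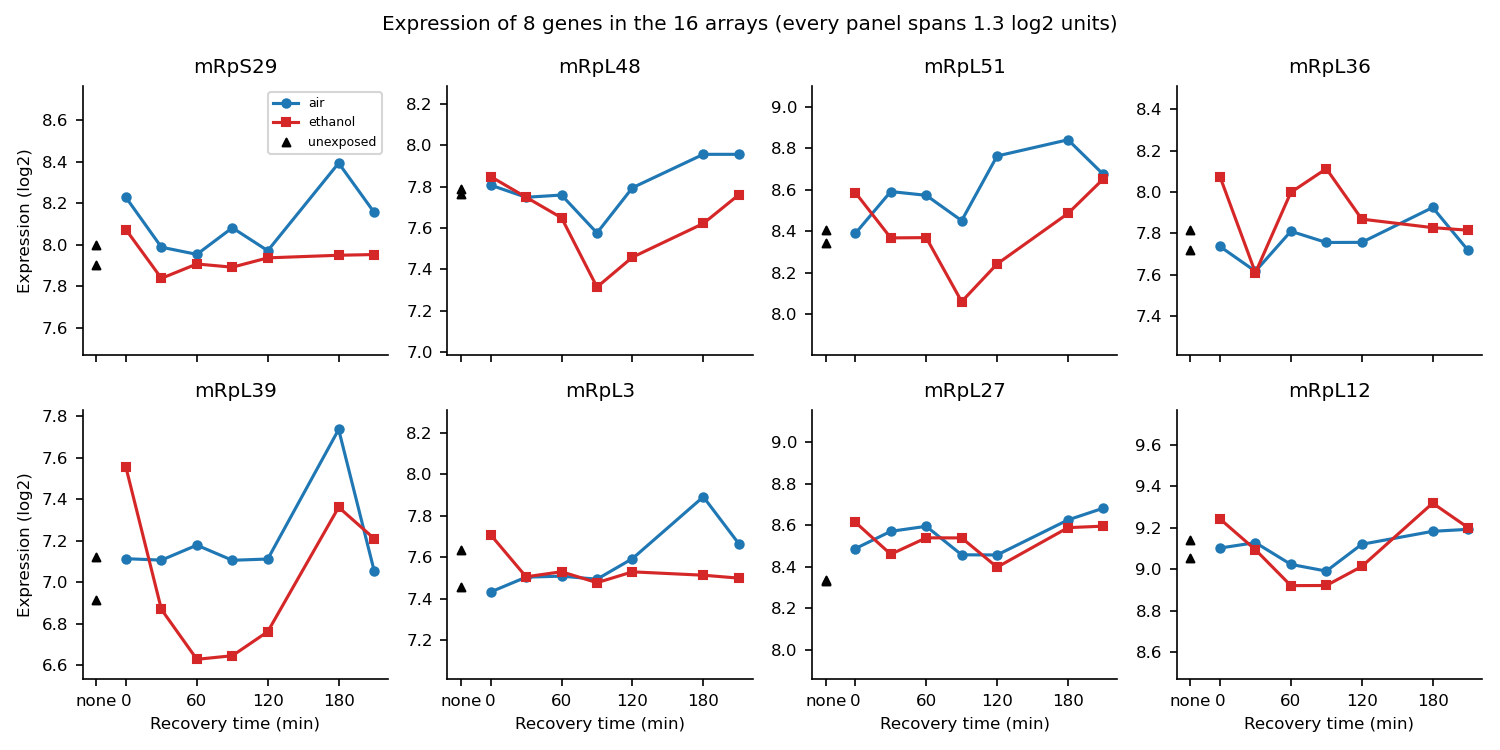
Signal on the log2 scale (vertical axis, 1.3 units in each panel) against recovery time in min (horizontal axis) for 8 genes, with 1 array per point for air (blue circles), ethanol (red squares) and the 2 unexposed arrays (black triangles, marked none). The ethanol values of mRpS29 lie below the air value of the same time at 7 of 7 times, whereas the lines of mRpL12, mRpL27 and the other 5 genes touch or cross.

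Medians were near 0 for both subunits and for genes of either numbering. The large subunit had a median difference of −0.042 with 8 of 44 estimates positive, and the small subunit −0.032 with 6 of 25 positive. Subunits were assigned by symbol, although the mammalian counterparts of mRpS30 and mRpS18A sit in the large subunit. By the number in the symbol, 42 genes had a median of −0.024 with 9 positive, and the other 27 had −0.045 with 5 positive. The 42 were numbered as bacterial ribosomal proteins, apart from mRpS24 and mRpL55, which were added to them. Most of the 27 encode proteins known only from mitochondria, but mRpL47 and mRpS28 among them have bacterial homologues. In each of these groups 0 genes were called, and the differences between groups were not tested.

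Genes of the functional centres of the ribosome overlapped between the arms. mRpL12 encodes the flexible stalk that recruits the GTPase translation factors (3L from 8956791 to 8957584). It read 8.99, 9.12 and 9.19 in air, 8.92, 9.09 and 9.32 in ethanol and 9.14 and 9.06 in unexposed flies, so the ranges largely coincided. mRpL10, which anchors the stalk, read 8.71, 8.83 and 8.94 in air and 8.61, 8.80 and 8.96 in ethanol. mRpL11, at the base of the stalk, read 7.44, 7.55 and 7.85 in air and 7.19, 7.58 and 7.83 in ethanol. In all 3 stalk genes the lowest array or one of the lowest was the ethanol array of 90 min, and the medians of the arms lay within 0.05 of each other.

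mRpL2, mRpL3 and mRpL4 encode proteins that bind the core of the large subunit RNA. The medians in air and ethanol were 8.48 and 8.50 for mRpL2, 7.51 and 7.51 for mRpL3, and 9.47 and 9.48 for mRpL4. For mRpL3 the highest air value was 7.89, at 180 min, and the highest ethanol value 7.71, at 0 min. The arms of these genes therefore had nearly equal medians, and those of mRpL3 differed in which time was highest.

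In the small subunit, mRpS5 read 12.17, 12.24 and 12.55 in air, 12.06, 12.22 and 12.46 in ethanol and 12.40 and 12.19 in unexposed flies. The medians in air and ethanol were 9.64 and 9.62 for mRpS7 and 10.54 and 10.44 for mRpS9, both homologues of bacterial head proteins. mRpS2 read 6.59, 6.89 and 7.34 in air and 6.71, 6.90 and 7.43 in ethanol. Its single differences ran in both directions, from −0.49 at 180 min to 0.56 at 0 min.

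Among the proteins found only in mitochondria, the medians in air and ethanol were 8.52 and 8.46 for mRpS30, 8.62 and 8.61 for mRpS35, and 8.15 and 8.12 for mRpL44. For mRpL45, whose mammalian counterpart lies at the exit of the peptide tunnel, they were 8.88 and 8.83. mRpL44 was lowest in the ethanol array of 90 min, where it read 7.67 against 7.90 to 8.26 in the other ethanol arrays.

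Signals ran from a mean of 6.77 (mRpL21) to 12.25 (mRpS5) over the 16 arrays, but probe sets differ in hybridisation, so the numbers do not order the genes by abundance. The brightest probe sets were those of mRpS5, mRpL28, mRpS9, mRpS21 and mRpL33 and the dimmest those of mRpL21, mRpL54, mRpS2, mRpL39 and mRpL32. The range of a gene over the 16 arrays had a median of 0.48 log2 units, from 0.20 (mRpS24) to 1.11 (mRpL39), and 68 of 69 genes stayed within 1 unit. A range under 0.5 was found in 60.9% of the 69 genes and in 28.8% of all genes. The corresponding median range was 0.65 over all genes, 0.23 over 33 cytosolic ribosomal protein genes, 0.24 over 51 genes of oxidative phosphorylation subunits and 0.79 over 10 mitochondrial tRNA synthetase genes. The median range of the mitochondrial ribosomal genes was thus below that of all genes and above those of the cytosolic ribosomal and oxidative phosphorylation lists. These ranges were not tested, and the groups were not matched by signal. The compared lists were taken by symbol from single-symbol probe sets and may lack members. The cytosolic list includes RpL7-like, RpL24-like and RpLP0-like. All 69 genes were at or above the filter level in every array, which the filter did not require of the genes at large. With each array centred on the kept genes, the median range was 0.34 over the 69 genes and 0.57 over all genes.

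**Figure D3:**
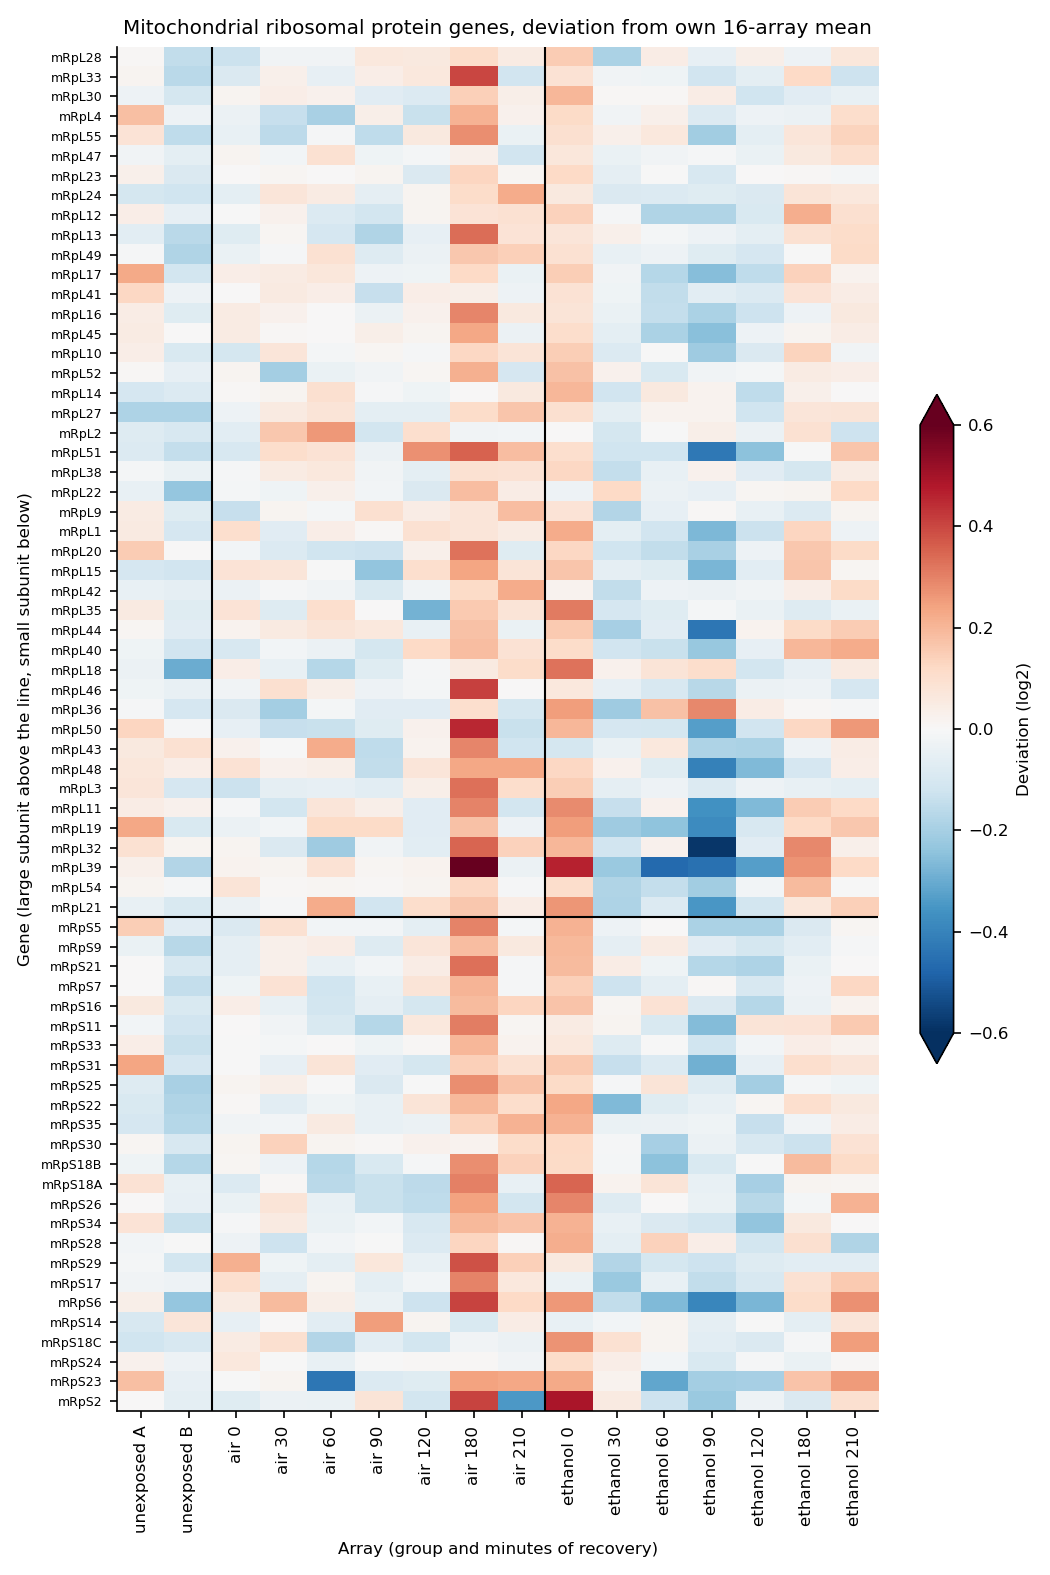
Deviation of each of the 69 genes (rows, large subunit above the line and small subunit below, each sorted by mean signal) from its own mean over the 16 arrays (columns), on a log2 colour scale from −0.6 (blue) to 0.6 (red). Most rows are red in the air array of 180 min and the ethanol array of 0 min, and mRpL39 has the widest range, 1.11.

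The genes moved together with the array as a whole. Set against the mean of the unexposed arrays, the median of the 69 genes was 0.23 in the air array of 180 min, where 67 of 69 were above, and 0.17 in the ethanol array of 0 min, where 66 were above. The other 12 exposed arrays lay between −0.074 and 0.086. The median over all 8110 genes in the former 2 arrays was 0.22 and 0.16, so the rise of the 69 genes was the size of the array-wide one. The unexposed arrays A and B differed by a median of 0.10 among the 69 genes, with 64 of them higher in A, and by 0.13 among all genes.

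Across the 16 arrays, the Pearson correlation of a gene with the mean of the other 68 had a median of 0.74, and was above 0 in 68 of 69 genes. After each array was centred on the kept genes the median was 0.27, with 55 genes above 0. The same step left the median at 0.78 (0.74 before) for cytosolic ribosomal protein genes and 0.83 (0.71 before) for oxidative phosphorylation genes, and lowered it to 0.50 (0.65 before) for the mitochondrial tRNA synthetase genes. The arrays that carry these correlations share their scaling, so the values describe these libraries only.

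**Figure D4:**
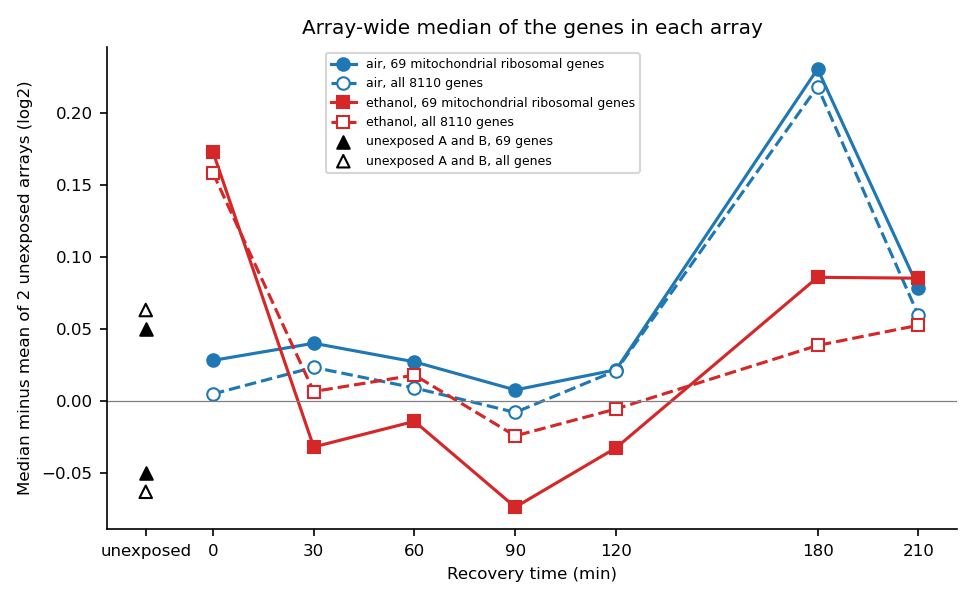
Median over genes of the signal minus the mean of the 2 unexposed arrays (vertical axis, log2) against recovery time in min (horizontal axis), for the 69 genes (filled) and for all 8110 genes (open), in air (blue), ethanol (red) and the unexposed arrays (black). The filled line follows the open one to 0.23 and 0.22 in air at 180 min and to 0.17 and 0.16 in ethanol at 0 min.

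At single times, the number of genes higher after ethanol was 65 of 69 at 0 min, 19 at 30 min, 25 at 60 min, 20 at 90 min, 12 at 120 min, 12 at 180 min and 36 at 210 min. As a share this was 94.2% against 78.0% of all genes at 0 min and 17.4% against 23.5% at 180 min, the times of the array-wide shifts. At the 4 times from 30 to 120 min it was 27.5%, 36.2%, 29.0% and 17.4%, below the 47.9%, 51.9%, 47.9% and 42.0% of all genes. The median difference was 0.15 at 0 min and −0.15 at 180 min, where it was 0.15 and −0.17 over all genes. From 30 to 120 min it was −0.064, −0.046, −0.087 and −0.065, against −0.006, 0.006, −0.009 and −0.029 over all genes. With the arrays quantile scaled once more, the counts were 30, 16, 17, 18, 23, 39 and 40, so that the majority at 0 min was not kept. A difference of at least 0.5 in size occurred 4 times, in 1 of 69 genes at each of 4 times and in 5.80% to 13.3% of all genes at each time. The genes were mRpS2 at 0 min (0.56), mRpL39 at 60 min (−0.55), mRpL32 at 90 min (−0.56) and mRpL51 at 120 min (−0.52).

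**Figure D5:**
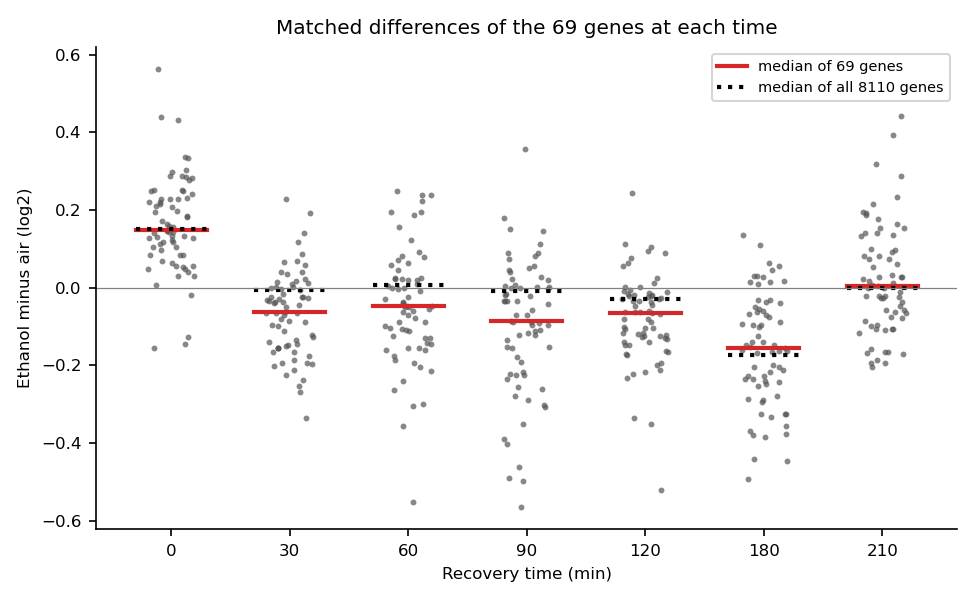
Ethanol minus air difference on the log2 scale (vertical axis) of each of the 69 genes (grey points, spread sideways for legibility) at each recovery time in min (horizontal axis), with the median of the 69 genes (red line) and of all 8110 genes (dotted line). Both medians are 0.15 at 0 min and lie below 0 at 180 min, −0.15 and −0.17.

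The time windows gave no called gene. In the early window (0 and 30 min) limma called 0 of 69, against 0.037% of all genes, with 0 at an unadjusted p under 0.05, against 6.18% of all genes. The median was 0.049, the smallest p-values on the higher side were those of mRpS2 (0.33), mRpS18A (0.22), mRpL52 (0.19), mRpL18 (0.18) and mRpS28 (0.16), and those on the lower side mRpS17 (−0.16), mRpS29 (−0.15), mRpL2 (−0.10), mRpL43 (−0.082) and mRpL54 (−0.078). Over all genes the early median was 0.068. For the 69 genes it was 0.15 at 0 min alone and −0.064 at 30 min alone. Over both times with quantile scaling it was −0.040, against −0.0029 over all genes.

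In the middle window (60 and 90 min) limma called 0 of 69, against 0% of all genes, with 2 of 69 (2.90%) at an unadjusted p under 0.05, against 10.4% of all genes. These were mRpL19 (−0.42, SE 0.14) and mRpL39 (−0.51, SE 0.19), both of the large subunit, and mRpL17 (−0.23), mRpL44 (−0.32) and mRpL45 (−0.24) came next by p-value. mRpL39 (3L from 14997981 to 14999666), read 7.06, 7.11 and 7.74 in air, 6.63, 6.87 and 7.55 in ethanol and 7.12 and 6.91 in unexposed flies. Its ethanol arrays of 30 to 120 min lay below every air array and those of 0, 180 and 210 min did not. This split was read off the values and was not counted over all genes. The smallest p-values on the higher side were those of mRpL36 (0.27), mRpL18 (0.21), mRpS18A (0.16), mRpL13 (0.12) and mRpS28 (0.099). The middle median was −0.059 with 18 of 69 estimates positive, against −0.0073 over all genes. With quantile scaling it was −0.076, against −0.010 over all genes.

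In the late window (120, 180 and 210 min) limma called 0 of 69, against 0.949% of all genes, with 2 of 69 (2.90%) at an unadjusted p under 0.05, against 12.0% of all genes. These were mRpL48 (−0.29, SE 0.077, limma adjusted p 0.182, the smallest of the 69) and mRpS25 (−0.23, SE 0.075). mRpS29 (−0.23), mRpL51 (−0.30) and mRpL3 (−0.20) came next by p-value, and on the higher side mRpS18C (0.11), mRpL47 (0.072), mRpL44 (0.065), mRpL36 (0.037) and mRpL19 (0.037). The late median was −0.061, against −0.067 over all genes. With quantile scaling it was 0.015, against 0.0032 over all genes. The interval of a window was wider than that of the mean over all times, with a median reach of 0.27 log2 units to either side in the early and middle windows and 0.22 in the late window.

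The change of the ethanol minus air difference over recovery was tested as a slope per hour. limma called 0 of 69 genes, against 0.678% of all genes, with 5 of 69 (7.25%) at an unadjusted p under 0.05, against 15.5% of all genes. These were mRpL3 (−0.13 per hour, SE 0.044, limma adjusted p 0.216), mRpS28 (−0.10), mRpS25 (−0.099), mRpL18 (−0.10) and mRpS16 (−0.094). The smallest p-values among positive slopes were those of mRpL47 (0.045), mRpL54 (0.038), mRpS17 (0.035), mRpL44 (0.054) and mRpL41 (0.023). The median slope was −0.031 per hour, against −0.051 over all genes, and turned to 0.028 with quantile scaling.

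Within the arms, the slope over recovery in air was called in 0 of 69 genes, against 0.0247% of all genes, with 3 of 69 (4.35%) at an unadjusted p under 0.05, against 10.3% of all genes. These were mRpL3 (0.099 per hour, SE 0.032), mRpL42 (0.066) and mRpL9 (0.068), with mRpL13 (0.080) and mRpL24 (0.056) next by p-value. The smallest p-values among negative slopes were those of mRpL47 (−0.024), mRpL2 (−0.026), mRpS18C (−0.020), mRpS24 (−0.0093) and mRpL41 (−0.0064). The median was 0.041 per hour with 62 of 69 slopes positive, against 0.040 over all genes, and it was 0.0082 without the 180 min array and −0.0013 with quantile scaling.

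After ethanol, the slope over recovery was called in 0 of 69 genes, against 6.91% of all genes, with 0 of 69 at an unadjusted p under 0.05, against 21.7% of all genes. The median slope was 0.0067 per hour with 38 of 69 positive, against −0.010 over all genes. mRpS17 (0.076), mRpL40 (0.074), mRpS18B (0.047), mRpL42 (0.042) and mRpL54 (0.040) had the smallest p-values among rises and mRpL30 (−0.057), mRpS28 (−0.064), mRpL18 (−0.064), mRpS18A (−0.068) and mRpS9 (−0.042) among falls. Quantile scaling called mRpS17 (0.092 per hour, limma adjusted p 0.0407) and array weights called mRpL40 (0.12 per hour, limma adjusted p 0.0366). The mitochondrial ribosomal genes were thus outside the set of genes with a called time course after ethanol, in all but those 2 settings.

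No gene was called after air alone or after ethanol when set against unexposed flies. Against the 2 unexposed arrays, limma called 0 of 69 genes after air, against 0% of all genes, and 0 of 69 after ethanol, against 0.715%. An unadjusted p under 0.05 was found in 1 of 69 (1.45%) after air and 2 of 69 (2.90%) after ethanol, against 6.41% and 11.1% of all genes. Both comparisons share the unexposed arrays, and their model had no term for recovery time. Arrays of different times thus stood in as replicates of an arm. The p-values rest on the spread over times and between unexposed A and B, not between pools of 1 time. mRpL27, a large subunit protein with a bacterial homologue (2L from 4458595 to 4459638), was 8.33 in both unexposed arrays. It read 8.46, 8.57 and 8.68 in air and 8.40, 8.54 and 8.61 in ethanol. Its differences were 0.22 (SE 0.077) after air, with a limma adjusted p of 0.584, and 0.20 (SE 0.077) after ethanol, and neither passed the test.

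By p-value, mRpS25 (0.20), mRpL24 (0.16), mRpL22 (0.16) and mRpS35 (0.17) came next on the higher side after air. On the lower side the order was mRpL4 (−0.11), mRpL20 (−0.086), mRpL41 (−0.046), mRpS31 (−0.055) and mRpS18A (−0.060). After ethanol, mRpL18 (0.23), mRpL22 (0.16), mRpS18C (0.17) and mRpS35 (0.13) followed mRpL27. The smallest p-values on the lower side were those of mRpL43 (−0.14), mRpL48 (−0.15), mRpL17 (−0.10), mRpL19 (−0.13) and mRpS31 (−0.10). The medians of the 69 genes were 0.066 after air and 0.020 after ethanol, against 0.047 and 0.036 over all genes. Without unexposed A they were 0.12 and 0.075, without unexposed B 0.016 and −0.033, and with quantile scaling 0.0077 and −0.038. The sign after ethanol thus rested on which unexposed array was used, and it also turned without the 0 min array (−0.015), while the median after air was 0.038 without the 180 min array.

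Other genes of mitochondrial gene expression were not called in ethanol against air either, where 0.691% of all genes were called. At that share, 0 calls in lists this short say little about their genes. tko and bonsai, which encode the mitochondrial ribosomal proteins S12 and S15 under other symbols, differed by −0.026 (SE 0.055) and 0.00051 (SE 0.047) between ethanol and air. Of 7 mitochondrial translation factor genes 0 were called, with mEFTu2, an elongation factor that brings tRNA to the ribosome, at −0.14 (SE 0.045). Of 10 mitochondrial tRNA synthetase genes 0 were called, with LeuRS-m at −0.20 (SE 0.083) and CysRS-m at −0.18 (SE 0.092). Of 9 genes of mitochondrial DNA maintenance and transcription 0 were called, with the packaging factor TFAM at 0.015 (SE 0.049) and the RNA polymerase PolrMT at −0.087 (SE 0.070). Estimates of this list ran from −0.11 (mTerf5) to 0.10 (mTerf3), with 6 of 9 positive and a median of 0.0635.

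Of 9 import genes and 10 chaperone and protease genes 0 were called in ethanol against air, with the import receptor Tom70 at −0.23 (SE 0.086) and the chaperone Hsp60A at −0.025 (SE 0.060). Estimates of the chaperone and protease list ran from −1.52 (CG9920) to 0.063 (Hsc70-5), with 3 of 10 positive and a median of −0.045. CG9920 was also the highest of this list in air against unexposed flies, at 1.79, and was not called there. Roe1, a co-chaperone of the matrix, was the only gene of the mitochondrial lists called in any comparison. Its slope over recovery in ethanol was 0.49 per hour (limma adjusted p 0.0134), in a comparison that called 6.91% of all genes. Of 5 regulator genes 0 were called, with Dref, a transcription factor of growth and replication genes, at 0.36 (SE 0.13) and Ets97D, the fly counterpart of a subunit of nuclear respiratory factor 2, at −0.18 (SE 0.096). The medians were −0.0065 over 33 cytosolic ribosomal protein genes and −0.028 over 51 oxidative phosphorylation genes. In either list 0 were called, against 0.691% of all genes.

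Some arrays carried RNA of other tissues. The mean log2 signal of the male reproductive tract and gut marker genes that passed the filter, set against the unexposed arrays, was 5.97, 4.34 and 4.93 in the air arrays of 0, 60 and 120 min and 3.39 in the ethanol array of 120 min, and between −0.011 and 0.10 in the other 12. Most of these 17 genes were under log2 4 in the unexposed arrays and passed the filter through the arrays where they are high, so the score describes those arrays and is no test. Of the whole lists, all 15 measured male reproductive tract genes were under log2 4 in both unexposed arrays, and their list mean ran from 2.43 to 7.04 in air and 2.39 to 4.10 in ethanol, the gut list from 2.48 to 5.60 and from 2.48 to 4.96, and the testis list from 2.37 to 4.88 and from 2.35 to 3.95. Without the 0, 60 and 120 min times the median ethanol minus air difference of the 69 genes was −0.077 with 9 positive estimates, and limma again called 0. All 7 antennal marker genes were called lower after ethanol, with a median of −1.77 and list means of 8.01 to 9.54 in air, 6.39 to 7.66 in ethanol and 8.95 to 8.98 in unexposed flies. The part of antennal RNA in the values of the mitochondrial ribosomal genes was not tested. All 6 measured photoreceptor, 6 glial and 6 muscle markers were at log2 4 or above in every array. In ethanol against air 0 of them were called, where 0.691% of all genes were. Of 6 measured neuronal markers 4 reached log2 4 in every array (brp and para were below the filter), as did 4 of 6 head fat body markers. In ethanol against air 0 of these 8 were called, with Lsp2 of the fat body at 1.41. Among the fat body markers, 1 was called higher in the late window. In the slope after ethanol 1 was called higher and 2 lower.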

How the data were processed

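The values are the log2 expression values deposited by the authors for Affymetrix Drosophila 2.0 arrays, computed with GCRMA per the submitters' processing notes (no version given). GCRMA quantile normalizes the arrays, so a change in total RNA per head cannot be seen. Per the labels, RNA was extracted with Trizol and labelled with biotin. Of 18952 probe sets, 183 controls were left out. Through the array annotation and RefSeq, 13646 had 1 symbol, 402 several and 4721 none. A gene was kept at log2 4 in at least 3 of 16 arrays (8110 of 17104). limma 3.58.1 in R 4.3.3 was fitted over all kept genes with Benjamini-Hochberg adjustment. Ethanol and air arrays were matched by time as a factor, the unexposed comparisons used 1 model with 3 groups, and slopes are per hour. Python 3.11.15, pandas 2.3.3, numpy 2.4.6 and matplotlib 3.10.9 were also used. Models were tested on simulated data. For each comparison, genes past adjusted p 0.05, or otherwise the 5 smallest p-values in each direction, were named, with 15 genes always named. The members and lists were chosen with earlier results of these data known. The number of arrays limits the precision. Positions are on Release 6 as RefSeq gives it; the build of the array is not given in the sources used here. Alternatives were filters, scalings, variance settings, array weights, other matching and left-out arrays or times.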

Additional observations from a re-analysis of the deposited data

Results flagged for a closer look

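Of 140 groups of 7 arrays tested with Dixon's criterion at the 95% level, 14 held 1 array far from the other 6, where chance gives about 1 in 20. In 11 of them this was the air array of 180 min, which lay above the other air arrays. The gene values there were 10.33 for mRpS21, 10.30 for mRpL33, 9.34 for mRpS33, 9.21 for mRpL16, 9.09 for mRpL45, 8.65 for mRpL20, 8.56 for mRpS18A, 8.34 for mRpL46, 8.19 for mRpL50 and 7.74 for mRpL39, and the median of the 69 genes over the unexposed mean was 0.2305. The median over all genes in that array was 0.22.

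mRpS14 stood apart in air at 90 min, at 8.06. In ethanol, mRpL35 (8.45) and mRpL3 (7.71) stood apart at 0 min, the ethanol array with the highest median over all genes, 0.16.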

How the results depend on the processing

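In 8 of the 9 comparisons, 0 of 69 genes were called under every alternative run; the exception was the slope after ethanol, with 1 called under quantile scaling (mRpS17, 0.0923) and 1 under array weights (mRpL40, 0.1221). Medians over the 69 genes moved more. The median slope of the difference was 0.0277 with quantile scaling, 0.0178 with arrays centred on the kept genes (chosen after seeing the data), 0.0054 without the 0, 60 and 120 min arrays, −0.0005 with the body-tissue covariate, and −0.0817 (without 210 min) to −0.0014 (without 0 min) with 1 time left out. The early median was −0.0636 without the 0, 60 and 120 min arrays and −0.0636 to 0.1489 with 1 time left out. The median slope in air was −0.0013 with quantile scaling, 0.0047 with centred arrays and 0.0082 to 0.0572 with 1 time left out, and that after ethanol −0.0205 to 0.0386. Causes were not tested. Signs turned in 7 of the single values, none of them called: mRpL18 in ethanol against air with the covariate (−0.0043), and with 1 time or array left out mRpS17 in the slope of the difference (−0.0101 to 0.0671), mRpL54 early (−0.1864 to 0.0294), mRpL47 late (−0.0006 to 0.1221) and in the slope in air (−0.038 to 0.0), mRpL41 in air (−0.124 to 0.0322) and mRpL17 in ethanol (−0.2692 to 0.0698) against unexposed. Without matching by time, the pairing used for ethanol against air, 0 genes were called. The median ethanol minus air difference stayed at −0.0406, which balanced pairs fix in advance. Without the 0 and 180 min pairs, also chosen after seeing the data, it was −0.0611. The mRpS11 and mRpL47 genes had a second probe set, with differences of −0.03 and −0.00 against −0.01 and 0.02 for those used.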
